A study of Homo sapiens with 4 samples.

Results

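The genes described here encode deubiquitinases, the enzymes that take ubiquitin off other proteins, in a human cell line depleted of the elongation factor IWS1. Members were chosen by gene symbol: names of the USP, OTUD, OTUB, UCHL and JOSD series, together with *ATXN3*, *BAP1*, *CYLD*, *STAMBP*, *STAMBPL1*, *BRCC3*, *MYSM1*, *YOD1*, *ZRANB1* and *VCPIP1*, with hyphenated names such as antisense genes left out. This gave 55 of the 10147 genes listed. The rule uses names alone, but it was set with earlier results of these data known. All genes listed had also passed the authors' filter on expression. RNA synthesis was measured by TT-seq, in which cells receive 4-thiouridine (4sU) for a short pulse and the labelled RNA is isolated, fragmented and sequenced. All cells were K562, a chronic myelogenous leukemia line, whose genome was edited so that IWS1 carries an N-terminal dTAG, a tag that lets the ligand dTAG7 send the protein for degradation. The dIWS1 group received 500 nM dTAG7 for 1 h, and the control group received its solvent, DMSO, for the same time. Both groups were then labelled with 500 µM 4sU for 5 min. The labels name biological duplicates, 2 libraries per group, and both groups carry the edited allele. The deposited values rest on 1 control column and 2 different dIWS1 columns, because the control column entered the mean of each gene 2 times. Neither dIWS1 column is numbered by replicate, and they are referred to below as column 1 and column 2. In such bulk samples less new RNA per cell and fewer labelled cells cannot be told apart.

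Ubiquitin is joined to lysines of target proteins by E1, E2 and E3 enzymes, and the resulting chains send proteins to the proteasome, to the endosome or into signalling complexes. Deubiquitinases cut these chains back or process ubiquitin precursors. The USP, OTU, UCH and Josephin families are cysteine proteases, whereas the JAMM family uses a zinc ion. In the nucleus, members of these families remove ubiquitin from histones H2A and H2B, so that several of them are themselves part of the machinery that acts on chromatin during transcription.

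Gene counts summed to 29832118 reads in the control column, to 20684301 in dIWS1 column 1 and to 20886697 in column 2, and the spike-in size factors by which reads are divided were 1.01, 0.993 and 0.919. RNA synthesis fell across the genome under this scaling, and the median gene moved by −0.47 (log2) in column 1 and −0.36 in column 2. Changes of members are therefore given on 2 scales, against the spike-ins and relative to the median gene. *IWS1* itself had 3684 reads in the control and 2334 and 2427 in the dIWS1 columns, which checks nothing about the depletion, since the tag acts on the protein. Of 10 erythroid and K562 marker genes 9 were listed, *GATA1* and *TAL1* among them, and 0 of 6 markers of other cell types. The control libraries cannot be compared with each other, so the spread of each test comes from the dIWS1 columns alone, and whether that spread holds for the control was not tested.

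RNA synthesis of most deubiquitinase genes was lower in dIWS1 cells. The median log2 fold change over the 55 members was −0.35 (quartiles −0.52 and −0.24), beside −0.42 over the 10027 genes tested, and 54 members had a value below 0. All 55 members passed the filter of more than 3 reads in at least 1 column. By limma with Benjamini-Hochberg adjustment over all genes tested, 29 members (52.7%) were called lower at an adjusted p under 0.05, where 64.9% of all genes were. No member was called higher, beside 0.12% of all genes, and 0 members had a value above 0 with an unadjusted p under 0.05. Both dIWS1 columns lay below the control for 51 members (92.7%), the same share as over all genes (92.7%). On the scale of the median gene, 4 members were called lower (7.27%, beside 13.6% of all genes) and 9 higher (16.4%, beside 12.3%). The share of members with both columns below the control thus equalled that of all genes, and the share called lower was smaller, a difference that was not tested. With scaling by total reads in place of spike-ins, 3 members were called lower and 19 higher. The calls relative to the median gene also depend on the filter, and without it 1 member was called lower and 2 higher, while 6 were called lower and 13 higher among genes whose mean was at least 100. Column 1 was the lower of the dIWS1 columns for 50 members, by a median of 0.14 over all 55, and the same offset over all genes with a mean of at least 100 was 0.12.

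**Figure D1:**
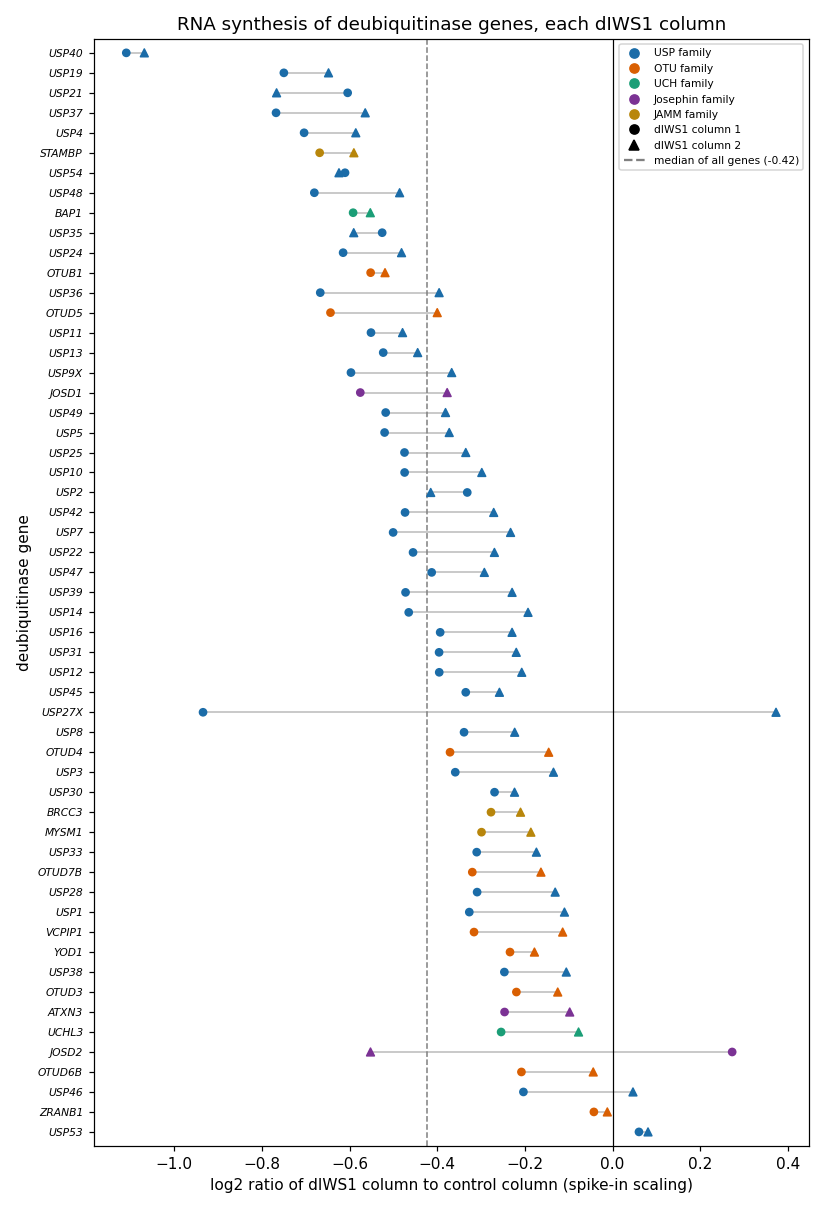
Log2 ratio of each dIWS1 column to the control column under spike-in scaling (horizontal axis) for the 55 deubiquitinase genes (rows, ordered by log2 fold change), with circles for column 1, triangles for column 2 and colours for the enzyme families. Most pairs lie left of 0, *USP40* is farthest left, *USP53* is right of 0 in both columns, and the wide pairs are *USP27X* and *JOSD2*, which had at most 31 reads in any column.

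*USP40*, a ubiquitin-specific protease on the minus strand of chromosome 2, showed the largest fall of all members. Its RefSeq span runs over 91257 bp (chr2:233475526-233566782, GRCh38.p14), and its canonical transcript in GENCODE 44 has 32 exons. It had 1709 reads in the control column and 779 and 742 in the dIWS1 columns, so that both dIWS1 values were far below the control and close to each other. The log2 fold change was −1.09 with a standard error (SE) of the fit of 0.14 (1 control and 2 dIWS1 columns, as for every member), which is 47.0% of the control level, with an adjusted p of 6.71e-13 by limma. Against the median gene it was −0.67 with an adjusted p of 0.000325 by limma.

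*USP53* stood at the other end. Inherited loss of this gene is linked to cholestasis, and its protein was long annotated as an inactive deubiquitinase. It lies on the plus strand of chromosome 4 (chr4:119212601-119295518, 82918 bp, 19 exons) and had 5681 reads in the control column and 5826 and 5471 in the dIWS1 columns. After scaling, both dIWS1 columns were above the control, by 0.06 and 0.08 (log2), and it was the only member of which this holds (1.79% of all genes). Its log2 fold change was 0.07 (SE 0.15), within the error of 0. Against the median gene the value was 0.48 with an adjusted p of 0.000907 by limma.

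The promoters of these genes and of *USP54*, the paralog of *USP53*, are shown because they belong to the members with the largest and the smallest fall and to the pair that differed most. Each is the 250 bases before a RefSeq start site in GRCh38.p14, read 5′ to 3′ on the gene's strand. They lie at chr2:233566783-233567032 (minus strand, *USP40*), chr4:119212463-119212712 (plus strand, *USP53*) and chr10:73625642-73625891 (minus strand, *USP54*). Capitals mark matches on either strand to 6 motifs: the GC box, written GGGCGG, the CCAAT box, named for its letters, the TATA box, written TATAAA, the E-box, written CACGTG, the ETS motif, written CCGGAAG, and the CRE, written TGACGTCA. The start sites of the *USP53* and *USP54* windows lie 112 and 340 bp inside the RefSeq span of the gene.
USP40 promoter: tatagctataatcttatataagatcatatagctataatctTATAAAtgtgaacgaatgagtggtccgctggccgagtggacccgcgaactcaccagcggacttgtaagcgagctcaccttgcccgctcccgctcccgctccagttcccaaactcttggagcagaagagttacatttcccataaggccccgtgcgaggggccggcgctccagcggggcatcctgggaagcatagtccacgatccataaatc
USP53 promoter: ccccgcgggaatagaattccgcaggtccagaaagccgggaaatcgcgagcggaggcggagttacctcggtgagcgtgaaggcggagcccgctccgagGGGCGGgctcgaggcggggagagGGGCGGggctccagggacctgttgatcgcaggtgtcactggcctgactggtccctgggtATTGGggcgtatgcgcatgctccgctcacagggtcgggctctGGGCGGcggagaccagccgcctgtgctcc
USP54 promoter: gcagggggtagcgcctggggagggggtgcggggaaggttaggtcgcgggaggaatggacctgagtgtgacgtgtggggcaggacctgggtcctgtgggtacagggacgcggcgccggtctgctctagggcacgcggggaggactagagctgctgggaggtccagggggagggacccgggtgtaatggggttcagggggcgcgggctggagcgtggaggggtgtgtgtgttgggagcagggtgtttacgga

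The *USP40* window holds TATAAA and no GC box, with a GC content of 52.8%. Its TATAAA lies in the part of the window far from the start site. Matches were counted at any position of a window, so a match is one of letters only. The *USP53* window holds GC boxes and 1 CCAAT box read on the other strand, with a GC content of 69.2%. The *USP54* window (68.8% GC) holds none of the 6 motifs. A window close to the gene's start was found for 38 members and for 7511 of all genes. A GC box was in the windows of 29 members (76.3%, beside 69.0% of all genes), an ETS match in 11 (28.9%, beside 18.6%) and a CCAAT box in 10 (26.3%, beside 36.4%). TATAAA was in 2 (*USP40* and *USP16*, 5.26%, beside 5.21% of all genes), an E-box in 1 (*USP28*, 2.63%, beside 9.25%) and a CRE in 0 (beside 3.12%). *USP16*, the other member with TATAAA (read on the other strand and also far from the start site), changed by −0.31, near the median of the members. The median GC content of the members' windows was 69.4%, beside 65.2% over all genes.

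After *USP40*, the largest falls were in genes of mixed function. *USP19*, which codes for a deubiquitinase anchored in the endoplasmic reticulum, had 532 reads in the control and 311 and 309 in dIWS1 and fell by 0.70 (log2, SE 0.13, adjusted p 1.72e-06 by limma). *USP21*, whose enzyme removes ubiquitin from histone H2A, had 331 reads in the control and 214 and 177 in dIWS1 and fell by 0.68 (SE 0.14). *USP37*, whose enzyme stabilises cyclin A, had 6039 against 3489 and 3719 reads and fell by 0.67 (SE 0.15). In each of these genes both dIWS1 columns were well below the control.
*USP4*, *STAMBP*, *USP54*, *USP48*, *BAP1* and *USP35* completed the 10 lowest members, with log2 fold changes from −0.64 (*USP4*) to −0.56 (*USP35*), all called lower. The 4 members that limma called lower relative to the median gene were *USP40*, *USP37* (−0.25, adjusted p 0.0183), *USP4* (−0.23, adjusted p 0.0262) and *STAMBP* (−0.22, adjusted p 0.0431). *USP19* (−0.28, adjusted p 0.0627) and *USP21* (−0.27, adjusted p 0.174) had lower values than these last 3 but fewer reads and larger errors.

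The 10 members with the smallest change, among those with at least 100 control reads, all missed the threshold against the spike-ins, and 9 of them were called higher relative to the median gene. *ZRANB1* (TRABID), an OTU enzyme linked to Wnt signalling, had 1155 reads in the control and 1103 and 1043 in dIWS1, for a log2 fold change of −0.03 (SE 0.14). Against the median gene it was 0.39, with an adjusted p of 0.00526 by limma. *USP46*, which acts with the activator WDR48, had 2450 reads in the control and 2093 and 2304 in dIWS1, for a log2 fold change of −0.08 (SE 0.15). Its column ratios were −0.20 and 0.05, so that the direction of this gene depends on the column. Its relative value was 0.34 (adjusted p 0.00893 by limma). *OTUD6B*, of the OTU family, had 1078 reads in the control and 918 and 952 in dIWS1 (−0.13, SE 0.13). Its relative value was 0.29, with an adjusted p of 0.0197 by limma.
The other members called higher relative to the median gene were *UCHL3* (0.25), which trims small adducts from ubiquitin and NEDD8, *ATXN3* (0.24), the gene of Machado-Joseph disease, *OTUD3* (0.24), *USP38* (0.24) and *YOD1* (0.21), a partner of the segregase VCP. Their adjusted p by limma ran from 0.0221 (*USP38*) to 0.0463 (*YOD1*). Against the spike-ins they were at −0.17 to −0.21, with both dIWS1 columns below the control in each. *VCPIP1*, the tenth, whose enzyme works with VCP in the rebuilding of the Golgi, was at −0.21 against the spike-ins and at 0.20 on the relative scale (adjusted p 0.0551 by limma).

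**Figure D2:**
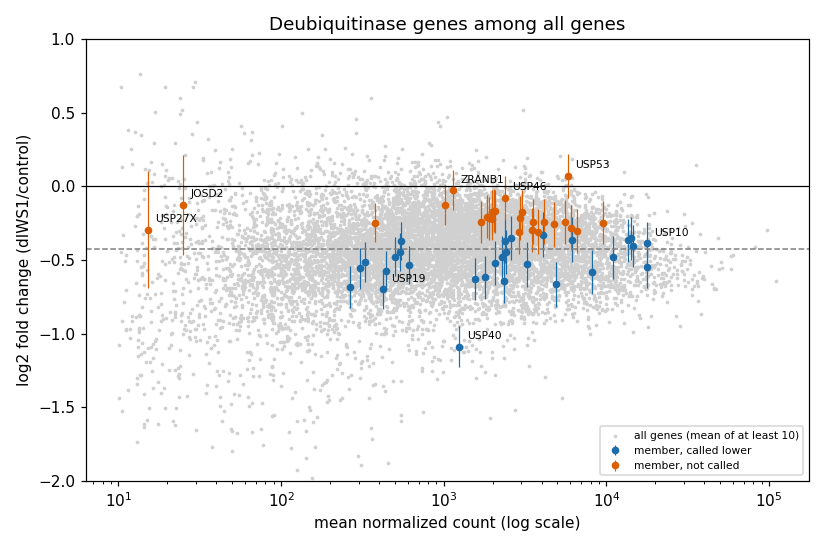
Log2 fold change under spike-in scaling (vertical axis, bars are 1 SE) against the mean normalized count on a log scale for all genes with a mean of at least 10 (grey) and for the members called lower (blue) or not called (orange); the dashed line is the median of all genes at −0.42, and 9 grey points lie outside the axes. *USP27X* and *JOSD2* stand apart at low depth with wide bars, and *USP40* lies below the bulk of the genes of its depth while *USP53* lies near its upper edge.

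By family, the 38 USP genes had a median of −0.37, with 24 called lower (63.2%, beside 64.9% of all genes), and the 9 OTU genes had a median of −0.21, with 2 called lower (22.2%; *OTUB1* at −0.54 and *OTUD5* at −0.52). *OTUB1* inhibits ubiquitin-conjugating E2 enzymes and *OTUD5* (DUBA) acts on TRAF3. Compared with the median gene, 3 USP genes were called lower and 3 higher, and 0 OTU genes were called lower and 4 higher (*ZRANB1*, *OTUD6B*, *OTUD3* and *YOD1*), where 13.6% of all genes were called lower and 12.3% higher. The difference between families was not tested. The 3 JAMM genes were *STAMBP* at −0.63 and *BRCC3* and *MYSM1*, both at −0.24. The UCH genes were *BAP1* at −0.57 and *UCHL3* at −0.17, and the Josephin genes were *JOSD1* at −0.48, *ATXN3* at −0.17 and *JOSD2* at −0.13.

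*JOSD2* and *USP27X* gave no usable change. *JOSD2* had 26 reads in the control and 31 and 16 in the dIWS1 columns, and *USP27X* had 16 reads in the control and 8 and 19. Their dIWS1 columns lie on both sides of the control, and the SE of their log2 fold changes was 0.34 and 0.40. A change of the size of the members' median was not detectable at this depth. All of the 53 other members had at least 100 control reads, and their SE ranged from 0.13 to 0.15.

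Of the deubiquitinases that act on histones, 9 of the 11 listed names were members, with a median of −0.36, and 5 were called lower (55.6%, beside 64.9% of all genes). *USP21* (−0.68), *BAP1* (−0.57), *USP49* (−0.45), *USP7* (−0.37) and *USP22* (−0.36) passed the test. *BAP1*, a tumor suppressor that removes ubiquitin from H2A together with ASXL proteins, had 535 reads in the control and 349 and 332 in dIWS1 (adjusted p 7.72e-05 by limma). *USP22*, the enzyme of the SAGA coactivator complex, had 6966 reads in the control and 4998 and 5262 in dIWS1 (adjusted p 0.0272 by limma). In both genes the dIWS1 columns were below the control. After scaling, their log2 ratios were −0.59 and −0.55 for *BAP1* and less alike, −0.46 and −0.27, for *USP22*. The H2A enzymes *USP16* (−0.31), *USP3* (−0.25) and *MYSM1* (−0.24) and the H2B enzyme *USP27X* (−0.29) missed the threshold, with adjusted p from 0.0583 to 0.499 by limma. None of these 9 genes was called relative to the median gene, where 25.9% of all genes were called in either direction.

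Of 9 genes listed for DNA repair and replication, all 9 were members, with a median of −0.35, and 5 were called lower (55.6%, beside 64.9% of all genes). These were *USP37* (−0.67), *USP48* (−0.58), *OTUB1* (−0.54), *USP11* (−0.52), linked to BRCA2, and *USP47* (−0.35), which acts on DNA polymerase beta. *USP45* (−0.30), *BRCC3* (−0.24), the enzyme of the BRCA1-A complex, *USP28* (−0.22) and *USP1* (−0.22), which acts on FANCD2 and PCNA, were not called. *USP1* had 2062 reads in the control and 1617 and 1740 in dIWS1, and *USP28* had 2155 reads in the control and 1711 and 1792 in dIWS1. In both genes each dIWS1 column was below the control.

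The proteasome-bound *USP14* had 4558 reads in the control and 3248 and 3631 in dIWS1 and was called lower close to the threshold (−0.33, adjusted p 0.0471 by limma). At the endosome, *STAMBP*, which cuts chains on sorted receptors, had 1913 reads in the control and 1184 and 1157 in dIWS1 (−0.63). *USP8*, which acts on the same receptors, had 6740 reads in the control and 5242 and 5257 in dIWS1 and was not called (−0.28, adjusted p 0.0862 by limma). In both genes the dIWS1 columns were close to each other and below the control.

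Of 11 listed genes of NF-kappaB and interferon signalling 6 were members, with a median of −0.25, and 2 were called lower (33.3%, beside 64.9% of all genes), *OTUD5* (−0.52) and *USP25* (−0.41). *OTUD4* (−0.26), *OTUD7B* (−0.24, Cezanne), *OTUD3* (−0.17) and *ZRANB1* (−0.03) were not called against the spike-ins. *CYLD*, a central brake on this pathway, is named in the rule but was not among the genes listed. Of 8 listed genes that work at the endoplasmic reticulum, with VCP or at mitochondria, 7 were members (median −0.24, 28.6% called lower, beside 64.9% of all genes). *USP19* (−0.70) and *USP13* (−0.48) were called lower, and *USP30* (−0.25), which opposes mitophagy, *USP33* (−0.24), *VCPIP1* (−0.21), *YOD1* (−0.21) and *ATXN3* (−0.17) were not. The adjusted p of the VCP partners *VCPIP1*, *YOD1* and *ATXN3* ran from 0.190 to 0.281 by limma.

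The 7 genes listed for p53, MYC and the nucleolus had a median of −0.39, and 6 of them were called lower (85.7%, beside 64.9% of all genes). They were *USP4* (−0.64), *USP36* (−0.53), a nucleolar enzyme that acts on MYC, *USP5* (−0.45), which takes apart unanchored chains, *USP10* (−0.39), *USP2* (−0.37) and *USP7* (−0.37). *USP7* (HAUSP), which stabilises MDM2 and p53, had 15485 reads in the control and 10766 and 12000 in dIWS1 (adjusted p 0.0202 by limma). *USP10*, which acts on p53 in the cytoplasm, had 20257 reads in the control and 14342 and 15000 in dIWS1 (adjusted p 0.0129 by limma). These genes are among the most strongly transcribed members, and their falls were close to that of the median gene (0.05 and 0.03 relative to it). *USP28* was the 1 member of this list that was not called.

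Among the remaining members, *USP24* (−0.55, 21141 reads in the control, 13581 and 13789 in dIWS1), *USP35* (−0.56), *USP9X* (−0.48), *JOSD1* (−0.48) and *USP42* (−0.37) were called lower. *USP31* (−0.31), with 4228 reads in the control and 3161 and 3306 in dIWS1, and *USP12* (−0.30) were not called, with adjusted p of 0.0631 and 0.0652 by limma. *USP39*, a catalytically inactive member that works in the spliceosome, had 2921 reads in the control and 2071 and 2269 in dIWS1 and was called lower (−0.35, adjusted p 0.0319 by limma).

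Paralogs were compared within the same libraries, so that the scaling cancels. Of the 10 pairs with both genes among the members, 3 had a 95% interval of the difference that left out 0, with no adjustment over pairs. These intervals take the normal distribution and the SE of the fit relative to the median gene. They do not allow for the limited degrees of freedom of that fit, so they are too narrow. *USP53* lay 0.69 (log2) above *USP54* (interval 0.49 to 0.88), and the difference was 0.67 in column 1 and 0.70 in column 2. *USP54* had 2204 reads in the control and 1420 and 1302 in dIWS1 (−0.62), against the nearly level values of *USP53*. *USP12* lay 0.22 below *USP46* (difference −0.22, interval −0.42 to −0.03). *USP12*, which is also activated by WDR48, had 7356 reads in the control and 5501 and 5802 in dIWS1 (−0.30). *USP25* lay below *USP28* (difference −0.18, interval −0.36 to −0.01), with 16695 reads in the control and 11818 and 12053 in dIWS1 for *USP25*. The interval of this last pair nearly reaches 0, and one that allowed for the limited degrees of freedom could include it.
For the other 7 pairs the interval included 0. It ran from −0.10 to 0.23 for *USP9X* minus *USP24*, from −0.19 to 0.26 for *USP5* minus *USP13*, from −0.20 to 0.17 for *USP16* minus *USP45*, from −0.36 to 0.04 for *USP36* minus *USP42* and from −0.39 to 0.13 for *USP4* minus *USP11*. The intervals of *USP22* minus *USP27X* (−1.11 to 0.94) and *JOSD1* minus *JOSD2* (−1.19 to 0.51) are too wide to say anything about these pairs.

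**Figure D3:**
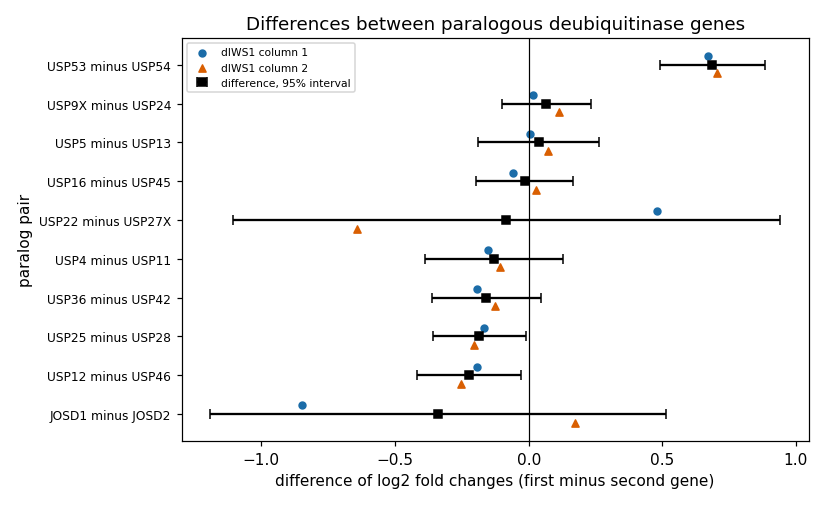
Difference of log2 fold changes (first minus second gene, horizontal axis) for 10 paralog pairs, with squares and bars for the fitted difference and its 95% interval, circles for dIWS1 column 1 and triangles for column 2. The pair *USP53* and *USP54* lies at 0.69, and the wide bars belong to the pairs with *USP27X* and *JOSD2*.

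The level of RNA synthesis, as control normalized counts per kb of gene span, ranged over the members from 4.96 (*JOSD2*) to 251 (*USP10*). The highest levels after *USP10* were those of *USP7* (214), *YOD1* (213), *USP22* (157) and *USP24* (141). The lowest after *JOSD2* were *USP27X* (5.15), *USP30* (6.30), *USP35* (7.57) and *ZRANB1* (16.0). With 1 control column the order of neighbouring levels has no error. Of these members of the highest level, *USP10*, *USP7* and *USP22* fell about as the median gene. *YOD1* fell less (0.21 relative to the median gene), and *USP24* lay at −0.13, which was not called. Of those of low level *USP35* was among the lowest 10 changes and *ZRANB1* among the highest 10.

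Across the 53 members with at least 100 control reads, Pearson's r between the log2 fold change and the log2 level per kb was 0.17 (Spearman's rho 0.13), and with the log10 gene span it was 0.06 (rho −0.04). With the GC content of the span r was −0.47 (rho −0.54), and with the number of exons it was −0.39 (rho −0.45). Over all genes with at least 100 control reads the r with GC content was −0.32 (n = 9028) and with exons −0.15 (n = 8844). These are descriptions across genes, which share the same libraries and are not replicates. The 23 members with a GC content under 40% had a median log2 fold change of −0.26 (−0.32 over all genes of this class), the 22 with 40 to 50% had −0.37 (−0.39) and the 10 with at least 50% had −0.53 (−0.54). In the class of lowest GC content 7 members were called lower (30.4%, beside 50.1% of all genes of this class), in the middle class 14 (63.6%, beside 63.6%) and in the highest 8 (80.0%, beside 79.3%). *USP40*, with a GC content of 38.9%, lay far below the other members of its class.

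**Figure D4:**
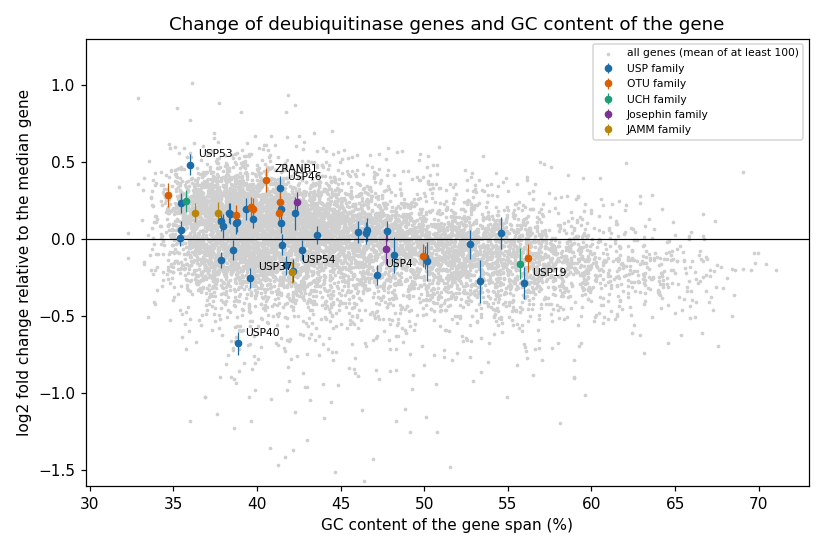
Log2 fold change relative to the median gene (vertical axis, bars are 1 SE) against the GC content of the gene span in percent for all genes with a mean of at least 100 (grey) and for the members with at least 100 control reads, coloured by family; 1 grey point lies outside the axes. Members with a GC content of at least 50% lie mostly under 0, and *USP53* and *USP40* are the extremes among members of low GC content.

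Some members share a chromosome. *USP4* and *USP19* lie 156321 bp apart on the minus strand of chromosome 3, and both were called lower, as were *BAP1* and *USP13*, the other members on this chromosome (median −0.61 over the 4). On chromosome 4, *USP53*, *USP46*, *USP38* and *OTUD4* were not called lower (median −0.13). Of these 4 genes, 3 were called higher relative to the median gene, beside 12.3% of all genes. Of the 5 members on the X chromosome, 3 were called lower, and 3 of the 9 on chromosome 1 were, beside 64.9% of all genes. Members lie on 20 chromosomes, and only some of these are described here. These groupings were seen in the values, and no test was run on them.

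The table also lists 4 antisense genes named after members, which were picked after their values were seen. *USP3-AS1*, on the minus strand of chromosome 15, had 202 reads in the control and 31 and 28 in dIWS1, so that both dIWS1 columns were far below the control. Its log2 fold change was −2.68 (SE 0.22, adjusted p 1.59e-29 by limma). Its RefSeq span shares 6924 bp with *USP3*, which had 10388 reads in the control and 7968 and 8615 in dIWS1 (−0.25). The sense gene therefore moved far less than the antisense gene in reads that were counted by strand. *OTUD6B-AS1* (−0.87) and *USP2-AS1* (−0.64) were called lower, beside −0.13 for *OTUD6B* and −0.37 for *USP2*. *USP46-AS1*, with 45 reads in the control and 37 and 35 in dIWS1, was at −0.24 and was not called.

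Genes that work with the members were listed in 3 groups. Of 20 names of further deubiquitinases and related proteins 10 were in the table, *USPL1* and *COPS5* among them. Of these 10, 3 were called lower (30.0%, beside 64.9% of all genes), with values from −0.90 (*ALG13*) to −0.12 (*ZUFSP*). Relative to the median gene, 1 of these 10 was called lower (beside 13.6% of all genes) and 1 higher (beside 12.3%). These were *ALG13* (−0.48), whose product has an OTU domain, and *ZUFSP* (0.29), which cuts long chains at sites of DNA damage. Of 26 names of subunits and activators 22 were listed, and 15 were called lower (68.2%, beside 64.9% of all genes), with values from −0.85 (*ASXL2*) to 0.15 (*ENY2*). *ASXL2*, a partner of BAP1, had 16059 reads in the control and 8254 and 8666 in dIWS1. *ENY2*, a subunit of the SAGA module of USP22, had 911 reads in the control and 927 and 983 in dIWS1 and was not called against the spike-ins (adjusted p 0.309 by limma). On the relative scale 3 of these 22 were called lower (beside 13.6% of all genes) and 4 higher (beside 12.3%). The 3 called lower were *ASXL2* (−0.43), *HCFC1* (−0.32), another partner of BAP1, and *UIMC1* (−0.24), the RAP80 subunit of the BRCA1-A complex. *ENY2* (0.56), *STAM2* (0.24), a partner of STAMBP, *GMPS* (0.22), a partner of USP7, and *G3BP1* (0.19), a partner of USP10, were called higher. *USP22* and *BAP1* themselves were not called on that scale. Of 7 ubiquitin and E1 genes 4 were listed, and all 4 were called lower (beside 64.9% of all genes), from −0.60 (*UBB*) to −0.34 (*UBA6*).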

How the data were processed

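TT-seq of genome-edited K562 cells was compared between control and dIWS1. Per the labels and the study's methods, the authors aligned reads with STAR 2.6.0 to GRCh38 with spike-in sequences, kept unique alignments, counted read pairs per RefSeq gene by strand, removed overlapping genes and genes at or under 10 RPK, and ran DESeq2 with spike-in size factors. The deposited table gives for each gene a signal, read counts divided by size factors and averaged over 4 library columns, and the authors' comparison (log2 fold change, its error, Wald statistic and p-values), whose values are not given here. The deposited log2 fold change served only to tell which columns were dIWS1 and to choose among splits of a mean.

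Because a mean is a sum of whole multiples of the steps of its columns, reads were recovered from it. The steps were 0.495 (control), 0.252 and 0.272 (dIWS1), and 3 distinct columns accounted for the 4, with the control entered 2 times. Of 10136 genes with a mean above 0, 10136 had 1 split, as had 49 of the 55 members from the mean alone, and 1 of 600 shifted means could be split. The plan had foreseen this case.

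limma 3.58.1 (voom, R 4.3.3) was fitted to reads of 10027 genes with more than 3 reads in a column, with 1 control and 2 dIWS1 columns, and p-values were adjusted by Benjamini-Hochberg. The spread was estimated from the dIWS1 columns and shared across genes of like depth, and the lone control was assumed to vary like them. P-values set a change against the spread between the 2 dIWS1 columns. The spike-in fit had 10027 degrees of freedom, because this spread was pooled over genes. Genes share the same columns and are not replicates, so small p-values can overstate the evidence. A second fit rescaled each dIWS1 column to its median gene. Log2 ratios of single columns used a pseudocount of 0.5. The fit was tested on simulated data. Spans came from RefSeq (GRCh38.p14) and exons from GENCODE 44. Of 10147 genes 9353 were matched by symbol, 576 by synonym and 169 by gene number. Python 3.11.15 was used with matplotlib 3.10.9, numba 0.67.0, scipy 1.17.1, pandas 2.3.3 and numpy 2.4.6.

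The members and gene lists were chosen with earlier results of these data known. The named genes are the 10 lowest and 10 highest members with at least 100 control reads, the 5 highest and 5 lowest levels per kb, members not called lower, members called relative to the median gene, members whose dIWS1 columns differ by over 0.5, and those on role and paralog lists. Intervals cover 95%. Alternatives were other filters, scalings, thresholds, limma with a trend, the control entered 2 times and leaving out each dIWS1 column.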

Additional observations from a re-analysis of the deposited data

How the results depend on the processing

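The direction of the members' change rests on the spike-in scaling. The median log2 fold change of the members was −0.35 under each filter, pseudocount and treatment of the control column tried, and became 0.091 with scaling by total reads and 0.063 when recentred on the median gene. In place of 29 members called lower there were 3 with scaling by total reads and 4 when recentred. The number called higher, 0 otherwise, became 19 and 9. With the other alternatives 21 to 40 members were called lower. With a limma trend, *USP7*, *USP10*, *USP14*, *USP22*, *USP39*, *USP42* and *USP47* lost the call at both pseudocounts, and *USP25* at 0.5. *USP14* also lost it with the control entered 2 times. Without either dIWS1 column the median ranged from −0.46 to −0.26, and such a fit has no residual degrees of freedom, so calls could not be tested. Relative to the median gene, the 4 members called lower became 1 with no filter on low reads, 11 with the control entered 2 times and 1 at an adjusted p under 0.01, and 29 under spike-in scaling. With a mean of at least 100 there were 6 lower and 13 higher. The 9 called higher became 2, 21 and 3 under the first 3 of these settings, 19 with total reads and 0 under spike-in scaling. By construction, entering the control 2 times counts 1 library as 2 samples. Recentring takes out the median gene's shift of each dIWS1 column (−0.47 and −0.36, log2). Members above the median gene then lie above 0. Scaling by total reads also moves all genes of a column together. The cause of the other shifts was not tested. No paired analysis was possible because the columns carry no replicate number and the control is 1 distinct column.

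Leaving out a dIWS1 column turned 3 members: *USP46* ranged from −0.20 to 0.046, *USP27X* from −0.93 to 0.37 and *JOSD2* from −0.55 to 0.27. When recentred on the median gene, 34 members turned positive: *USP25* 0.0092, *USP10* 0.028, *USP2* 0.041, *USP42* 0.042, *USP7* 0.047, *USP22* 0.052, *USP47* 0.061, *USP39* 0.063, *USP14* 0.085, *USP16* 0.10, *USP31* 0.11, *USP12* 0.11, *USP45* 0.12, *USP8* 0.13, *USP27X* 0.14, *OTUD4* 0.16, *USP3* 0.17, *USP30* 0.17, *BRCC3* 0.17, *MYSM1* 0.17, *USP33* 0.17, *OTUD7B* 0.17, *USP28* 0.19, *USP1* 0.20, *VCPIP1* 0.20, *YOD1* 0.21, *USP38* 0.24, *OTUD3* 0.24, *ATXN3* 0.24, *UCHL3* 0.25, *JOSD2* 0.28, *OTUD6B* 0.29, *USP46* 0.34 and *ZRANB1* 0.39. With scaling by total reads the same 34 did so: *USP25* 0.037, *USP10* 0.056, *USP2* 0.068, *USP42* 0.070, *USP7* 0.075, *USP22* 0.080, *USP47* 0.089, *USP39* 0.091, *USP14* 0.11, *USP16* 0.13, *USP31* 0.13, *USP12* 0.14, *USP45* 0.15, *USP8* 0.16, *USP27X* 0.17, *OTUD4* 0.18, *USP3* 0.20, *USP30* 0.20, *BRCC3* 0.20, *MYSM1* 0.20, *USP33* 0.20, *OTUD7B* 0.20, *USP28* 0.22, *USP1* 0.22, *VCPIP1* 0.23, *YOD1* 0.24, *USP38* 0.27, *OTUD3* 0.27, *ATXN3* 0.27, *UCHL3* 0.28, *JOSD2* 0.30, *OTUD6B* 0.32, *USP46* 0.36 and *ZRANB1* 0.41. Depth limits *USP27X* and *JOSD2*, with at most 31 reads in a column.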
